A study of Mus musculus with 13 samples.

Results

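The genes described here are the amino acid transporters of 7 solute carrier (Slc) families in mouse embryonic fibroblasts (MEFs) and in cultures on their way to induced pluripotent stem cells. They were chosen by symbol from a table of 24495 genes: every row whose symbol begins with Slc1, Slc3, Slc6, Slc7, Slc36, Slc38 or Slc43, followed by the letter a and a number with nothing after it. The rule found 61 genes and used no measured value. Of these, 36 had enough reads to be tested, and 25 fell below the filter on low counts. Most of the products carry amino acids across a membrane, but the Slc6 family also holds carriers of taurine, creatine, serotonin and other solutes, and Slc43a3 encodes a carrier of purine bases.

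The study asked how Tet2, an enzyme that oxidises methylated cytosine in DNA, bears on reprogramming, by RNA-seq of 13 libraries. All cells were MEFs from embryonic day 12.5, of the strain background V6.5 129XBI/6, that lacked Tet2 (Tet2-/-) and carried the doxycycline-inducible factors with their activator (OKSM-rtTA). The Tet2-WT group (3 libraries) received wild-type Tet2 from a pMXs retrovirus, the Tet2-E group (4 libraries) a stalling mutant of Tet2, and the pMXs group (3 libraries) the empty retrovirus, and all 3 were collected on day 5 of reprogramming. The Untreated group (3 libraries) was MEFs that had not been reprogrammed, and the sources used here do not settle whether they also carried the empty vector. Day 5 cells grew on feeder MEFs treated with Mito-C, and no step that removes the feeders before RNA extraction is described. Their medium held 15% serum, leukaemia inhibitory factor, 0.1 mM non-essential amino acids, 1 mM pyruvate, 2 mM GlutaMAX, 0.1 mM mercaptoethanol, the inhibitors PD0325901 (1 µM) and CHIR99021 (3 µM), and doxycycline at 2 µg/mL, whereas the MEF medium is listed with 10% serum and 2 mM GlutaMAX. Reprogramming and the supply of amino acids in the medium therefore cannot be told apart between pMXs and Untreated.

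Cells take up amino acids through carriers that differ in what they bind and what drives them. Slc1 proteins use sodium to bring in glutamate or small neutral amino acids. Slc38 proteins use sodium for glutamine, alanine and related neutral ones. Some Slc36 proteins use protons, among them Slc36a1 at the lysosome. Slc7 proteins are either stand-alone carriers of arginine and lysine or light chains that need a heavy chain of the Slc3 family to reach the surface, where they exchange one amino acid for another. Slc43a1 and Slc43a2 let large neutral amino acids pass down their gradient. Pluripotent mouse cells depend on threonine, and several of these carriers are induced by the transcription factor Atf4 when amino acids run short.

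Promoter sequence is shown for 3 members, because the study concerns an enzyme that acts on methylated CG pairs and because Atf4 acts through a known motif. The windows run from 250 bases before to 50 bases after the start site, from RefSeq on the build GRCm38.p6, which is not the mm9 build the authors used, and 43 of the 61 members matched an entry. Slc1a6 and Slc1a2 encode carriers of glutamate that are best known from neurons and glia, and both are described with Tet2 below. In their windows the capitals mark CG pairs.
Slc1a6, chr10:78780246-78780545, + strand: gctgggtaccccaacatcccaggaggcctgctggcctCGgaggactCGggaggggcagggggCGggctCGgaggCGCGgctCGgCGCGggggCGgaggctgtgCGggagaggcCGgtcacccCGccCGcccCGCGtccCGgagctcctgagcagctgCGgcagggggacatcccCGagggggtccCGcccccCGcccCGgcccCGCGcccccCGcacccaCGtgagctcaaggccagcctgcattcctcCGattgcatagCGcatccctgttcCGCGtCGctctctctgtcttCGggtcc
Slc1a2, chr2:102706188-102706487, + strand: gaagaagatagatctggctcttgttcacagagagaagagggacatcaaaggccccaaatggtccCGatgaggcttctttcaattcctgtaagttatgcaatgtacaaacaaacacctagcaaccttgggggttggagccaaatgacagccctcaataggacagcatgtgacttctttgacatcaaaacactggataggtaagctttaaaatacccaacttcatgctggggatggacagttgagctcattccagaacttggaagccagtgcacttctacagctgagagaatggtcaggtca
The Slc1a6 window held 32 CG pairs, a number reached by 9.52% of 32851 RefSeq windows, and the Slc1a2 window held 1, a number reached by 94.6%. The median was 7 over all windows and 11 over the 41 windows of members tested. Windows of the same gene can differ in CG pairs, with 3 and 26 in those of Slc6a17. For Slc1a2 only the window shown was matched, and other start sites of the gene were not examined. Slc7a11 encodes the light chain that exchanges cystine for glutamate, a well-known target of Atf4. In its window the capitals mark TGATGNAA, the core of the site that Atf4 binds with a C/EBP partner, searched on both strands.
Slc7a11, chr3:50443564-50443863, - strand: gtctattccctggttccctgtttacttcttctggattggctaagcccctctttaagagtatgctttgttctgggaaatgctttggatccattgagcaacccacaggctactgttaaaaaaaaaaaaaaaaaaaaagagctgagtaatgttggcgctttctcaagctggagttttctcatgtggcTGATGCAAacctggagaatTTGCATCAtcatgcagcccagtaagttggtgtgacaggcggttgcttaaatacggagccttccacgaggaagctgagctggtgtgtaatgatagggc
The first match began 66 bases before the start site on the strand shown, and the second, on the reverse strand, 47 bases before it. The motif lay in 4 of the 41 windows of members tested (9.76%) and in 1304 of all windows (3.97%). Those 41 windows cover 25 of the 36 members tested, and Slc7a3, Slc43a3, Slc6a6 and Slc38a1 are among those without one. Slc1a4 had 1 match, 4 bases before its start site. The other windows of tested members with a match were overlapping ones of Slc7a7. These share a TGATGCAA site, so the share of windows counts that site in each. A match is a description of these letters and not of binding.

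Library totals ranged from 14052646 to 26265382 counts. Levels are given as CPM, a gene's share of the library's counts on the usual scale, after TMM scaling, as mean ± SD over libraries unless a library is named. Changes are log2 fold changes ± SE from edgeR's quasi-likelihood test, and a gene is called at an adjusted p (Benjamini-Hochberg, over all 14607 genes tested) under 0.05. Tet2 itself was at 1243, 1176 and 1233 CPM in Tet2-WT replicates 1, 2 and 250, and at 1356, 1403, 581 and 1299 CPM in Tet2-E replicates 1, 2, 100 and 250, against 58.8, 39.1 and 41.1 CPM in pMXs replicates 2, 100 and 250 and 37.8, 45.4 and 48.3 CPM in Untreated replicates 1, 2 and 100. The vectors were therefore expressed where the labels place them, with Tet2-E replicate 100 below the other 3 of its group. The summed level of 14 fibroblast markers was 18951 to 20448 CPM in Tet2-WT, 23113 to 23908 in Tet2-E and 25664 to 29089 in pMXs, against 60593 to 62480 CPM in Untreated libraries. That of 13 pluripotency markers was 691 to 880 CPM in Tet2-WT, 633 to 812 in Tet2-E and 749 to 865 in pMXs, against 4.38 to 9.47 CPM in Untreated libraries. The day 5 libraries therefore held fewer fibroblast transcripts and more pluripotency transcripts. Dppa4 and Dppa5a were at 0 in pMXs and Untreated libraries. In bulk RNA fewer cells of a type cannot be told from less RNA per cell. The labels do not say whether replicates were separate cultures, so p-values measure the spread between these libraries.

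Between day 5 cells with empty vector and Untreated MEFs, the transporters moved in both directions. The cationic carrier Slc7a3 and the leucine-type carrier Slc43a2 rose most among members above 5 CPM, and the glutamate carrier Slc1a3, the neuronal carrier Slc6a17, the glycine carrier Slc6a9 and Slc1a6 fell most. Of 36 members tested, 11 rose and 16 fell (27 in all, 75%), where 70.1% of all genes tested were called, 35% in each direction. The members' share was thus near that of genes at large. The median log2 fold change was -0.30 for the members and -0.00133 for all genes, and the median size 0.75 against 0.57. A change of at least 2-fold passed the test in 11 members, 4 higher and 7 lower, and in 28.8% of all genes. The libraries did not overlap in 27 members (11 higher and 16 lower), and in 72% of all genes, 36.1% higher and 35.9% lower. The summed level of all 61 members was 2953 ± 35.6 CPM in pMXs and 3048 ± 53.4 CPM in Untreated libraries, so their total moved far less than single members did.

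**Figure D1:**
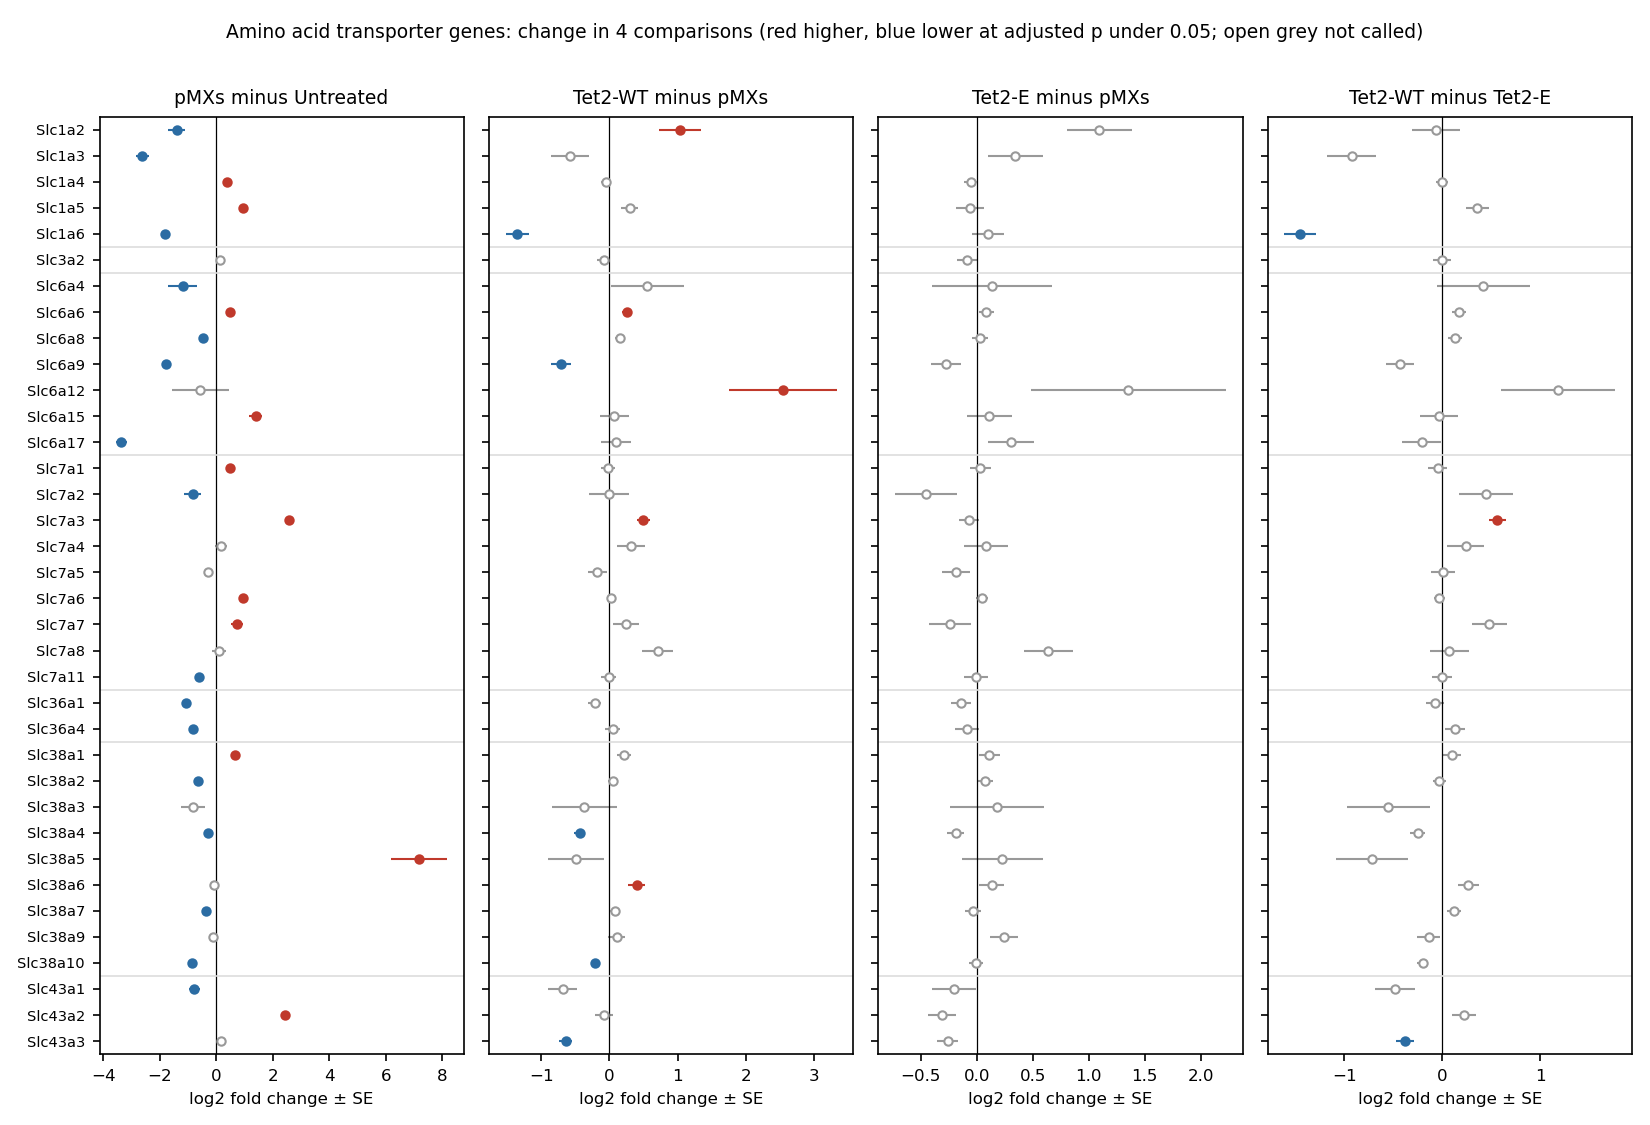
Log2 fold change ± SE (edgeR) of the 36 tested members, grouped by family, in 4 comparisons: red points are called higher, blue points called lower and open grey points not called. Calls fill the pMXs minus Untreated panel (27 of 36), are fewer with Tet2-WT (10), absent with Tet2-E and 3 between Tet2-WT and Tet2-E; the value drawn for Slc38a5 in the first panel is a fitted one and no bound.

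The Slc7 family held Slc7a3, the largest rise among members above 5 CPM. This carrier of arginine, lysine and ornithine was at 106, 97.1 and 97.1 CPM in pMXs libraries, against 15.7, 18.2 and 17.1 CPM in Untreated libraries. The groups lay far apart, and the change was 2.56 ± 0.10 (adjusted p = 1.57e-11). The other carriers of the same substrates moved less or the other way. Slc7a1, the widely expressed one, rose by less, to 153 ± 4.54 CPM in pMXs against 108 ± 17.4 CPM in Untreated libraries (0.50 ± 0.10, adjusted p = 0.000489). Slc7a2 fell to 65.1 ± 14.4 CPM in pMXs against 116 ± 40.0 CPM in Untreated libraries (-0.84 ± 0.30, adjusted p = 0.0241). That last call rested on few libraries, since the adjusted p was 0.144 without Untreated replicate 100, 0.0719 without pMXs replicate 2 and 0.0611 without pMXs replicate 100. Per kilobase of exon, Slc7a3 stood at 1.54 to 1.68 times the level of Slc7a1 in pMXs libraries and at 0.339 to 0.477 times in Untreated libraries, so the order of these carriers was turned round. Slc7a2 shares 162 bases of exon with Gm26584 on the opposite strand, and since the sources used here do not say how strand was handled in counting, reads of such pairs cannot be told apart.

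Among the light chains, those that exchange cationic against neutral amino acids rose and the cystine exchanger fell. Slc7a6 was at 154 ± 2.24 CPM in pMXs and 80.4 ± 2.55 CPM in Untreated libraries (0.93 ± 0.06, adjusted p = 1.32e-09). Slc7a7 was at 6.68 ± 1.5 CPM in pMXs and 4.04 ± 0.53 CPM in Untreated libraries (0.72 ± 0.21, adjusted p = 0.00546). Slc7a7 overlaps 232 bases of Oxa1l on the opposite strand. Slc7a11 fell to 38.4 ± 5.80 CPM in pMXs against 59.0 ± 4.99 CPM in Untreated libraries (-0.62 ± 0.11, adjusted p = 0.000136). Slc7a5, the light chain that takes up leucine and other large neutral amino acids, was not called: it was at 187, 202 and 212 CPM in pMXs libraries, against 284, 274 and 187 CPM in Untreated libraries (-0.31 ± 0.13, adjusted p = 0.0519). Untreated replicate 100 alone lay within the pMXs range, and without it the adjusted p was 0.000695. Its heavy chain partner Slc3a2 was likewise not called, with 212 ± 15.7 CPM in pMXs and 194 ± 19.5 CPM in Untreated libraries (0.12 ± 0.09, adjusted p = 0.253). The remaining tested Slc7 genes, Slc7a4 (1.72 ± 0.40 CPM in pMXs) and Slc7a8 (1.7 ± 0.29 CPM in pMXs), were not called.

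The Slc43 family split by gene. Slc43a2, a carrier of leucine, isoleucine, phenylalanine and methionine, was at 48.7, 57.3 and 61.3 CPM in pMXs libraries, against 8.33, 11.4 and 11.5 CPM in Untreated libraries. All pMXs libraries lay above all Untreated ones (2.43 ± 0.15, adjusted p = 1.22e-09), although 548 bases of its exons overlap Gm45606 on the opposite strand. Slc43a1, which carries the same kind of substrate, fell to 2.63 ± 0.32 CPM in pMXs against 4.49 ± 0.78 CPM in Untreated libraries (-0.79 ± 0.20, adjusted p = 0.00231). Slc43a3 was not called (0.17 ± 0.10, adjusted p = 0.126). The summed level of the family was 73.8 ± 5.95 CPM in pMXs and 28.5 ± 0.83 CPM in Untreated libraries.

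In the Slc1 family the glutamate carriers fell and the neutral amino acid carriers rose. Slc1a3, the glutamate carrier of astrocytes and other cells, was at 2.6, 4.06 and 3.83 CPM in pMXs libraries, against 18.1, 21.6 and 25.6 CPM in Untreated libraries (-2.62 ± 0.24, adjusted p = 1.48e-07). Slc1a6 was at 6.97, 5.82 and 7.05 CPM in pMXs libraries, against 26.8, 23.8 and 17.9 CPM in Untreated libraries (-1.80 ± 0.15, adjusted p = 3.16e-08). Neither gene's groups overlapped. Slc1a2, at 0.49 ± 0.18 CPM in pMXs and 1.36 ± 0.15 CPM in Untreated libraries, also fell (-1.41 ± 0.30, adjusted p = 0.000581). In contrast Slc1a5, the main sodium-driven glutamine carrier of many dividing cells, rose to 62.6 ± 6.70 CPM in pMXs against 32.7 ± 4.79 CPM in Untreated libraries (0.93 ± 0.13, adjusted p = 1.49e-05). Slc1a4, which exchanges alanine, serine, cysteine and threonine, rose to 143 ± 4.09 CPM in pMXs against 110.0 ± 7.10 CPM in Untreated libraries (0.38 ± 0.07, adjusted p = 0.000113).

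The Slc6 family held both the deepest fall among the 36 members and the member with the highest CPM at day 5. Slc6a17, a carrier of neutral amino acids on synaptic vesicles, was at 1.97, 1.34 and 0.96 CPM in pMXs libraries, against 15.8, 15.2 and 13.1 CPM in Untreated libraries (-3.37 ± 0.18, adjusted p = 3.89e-10). Slc6a9, the glycine carrier that clears glycine around cells, was at 9.57, 11.5 and 10.6 CPM in pMXs libraries, against 40.2, 36.7 and 32.3 CPM in Untreated libraries (-1.78 ± 0.14, adjusted p = 2.28e-08). Both were lower in every pMXs library than in any Untreated one. Slc6a9 shares 1429 bases of exon with Ccdc24 and 511 with Gm17114 on the opposite strand. Slc6a15, which carries proline and branched-chain amino acids, was at 6.59, 5.59 and 4.65 CPM in pMXs libraries, against 1.96, 2.17 and 2.34 CPM in Untreated libraries, a rise of 1.39 ± 0.23 (adjusted p = 7.99e-05). Slc6a6, the taurine carrier, rose to 526 ± 12.2 CPM in pMXs against 373 ± 25.1 CPM in Untreated libraries (0.49 ± 0.07, adjusted p = 2.05e-05). The creatine carrier Slc6a8 fell to 109 ± 2.66 CPM in pMXs against 151 ± 14 CPM in Untreated libraries (-0.46 ± 0.08, adjusted p = 6.34e-05). The serotonin carrier Slc6a4 was called lower at 19 counts over the pMXs group and 49 over the Untreated group (-1.20 ± 0.50, adjusted p = 0.0444). Its call ended when any one of 7 libraries was left out: Tet2-WT replicate 1 (adjusted p = 0.0551), Tet2-E replicate 250 (0.05), pMXs replicates 2 (0.0677) and 250 (0.145), or Untreated replicates 1 (0.0543), 2 (0.1) and 100 (0.0738).

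Of the 9 tested Slc38 genes, 2 rose, 4 fell and 3 were not called. Slc38a2, the sodium-driven carrier of alanine and glutamine that cells raise when amino acids are scarce, fell to 381 ± 10.1 CPM in pMXs against 593 ± 64.6 CPM in Untreated libraries (-0.64 ± 0.07, adjusted p = 1.82e-06). Slc38a1, which carries glutamine too, rose to 237 ± 25.7 CPM in pMXs against 148 ± 6.01 CPM in Untreated libraries (0.67 ± 0.10, adjusted p = 2e-05). These carriers of overlapping substrates therefore moved in opposite directions. Slc38a10 fell to 163 ± 5.34 CPM in pMXs against 298 ± 13.6 CPM in Untreated libraries (-0.87 ± 0.06, adjusted p = 9.56e-09). Slc38a4, a paternally expressed imprinted gene in mouse, changed by -0.28 ± 0.08 (adjusted p = 0.0056), and Slc38a7, the glutamine carrier of the lysosome, by -0.37 ± 0.08 (adjusted p = 0.000461). Slc38a5, a carrier of glutamine, asparagine and glycine, was not counted in Untreated libraries: it had 47 counts over the 3 pMXs libraries, against 0 in all 3 Untreated libraries. Against 3 counts over the Untreated group, the level in pMXs (0.85 ± 0.07 CPM) was at least 18.2-fold higher (adjusted p = 2.25e-05). Both tested Slc36 genes fell. Slc36a1, which lets amino acids out of lysosomes with protons, was at 19.1, 21.0 and 23.3 CPM in pMXs libraries, against 43.6, 42.6 and 45.8 CPM in Untreated libraries (-1.06 ± 0.09, adjusted p = 8.45e-08), and Slc36a4 changed by -0.81 ± 0.11 (adjusted p = 5.98e-06).

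**Figure D2:**
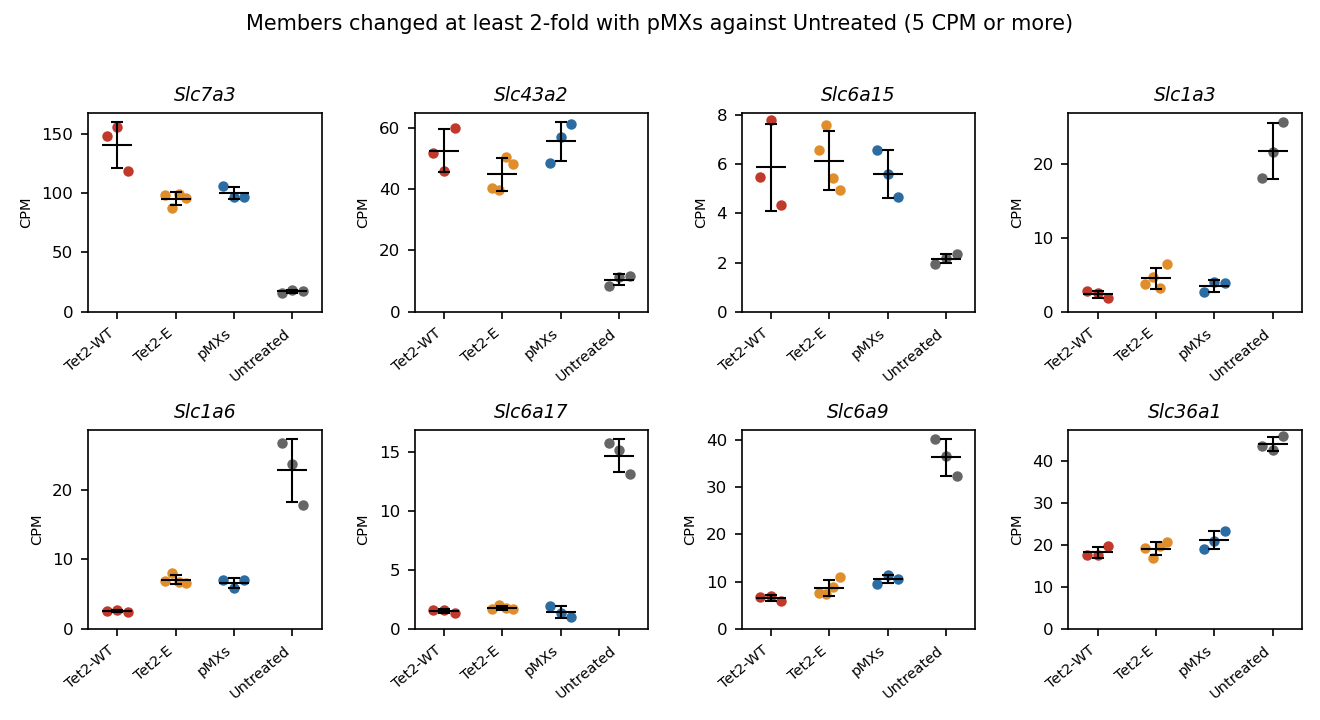
Level in CPM by library of the 8 members that changed at least 2-fold between pMXs and Untreated and reached 5 CPM in a group; points are libraries, horizontal lines group means and bars 1 SD. In each panel the 3 pMXs libraries lie on one side of the 3 Untreated libraries, above them for Slc7a3, Slc43a2 and Slc6a15 and below them for the other 5.

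Fibroblast markers were lower in 13 of 14 tested in pMXs than in Untreated libraries, and pluripotency markers higher in 10 of 10. Of all genes, 35% were called in each direction. Markers of other cells moved too: of the tested ones, macrophage markers were higher in 3 and lower in 3 of 7, endothelial in 3 and 2 of 6, neural in 5 and 3 of 10, keratinocyte in 4 and 2 of 10, and skeletal muscle markers lower in 5 of 5. Summed levels were 82.4 to 96.4 CPM in pMXs against 7.46 to 8.67 CPM in Untreated libraries for macrophage markers, with Adgre1, Ptprc and Cd53 at 0 in pMXs. For the neural markers they were 551 to 659 CPM in pMXs against 497 to 536 CPM in Untreated libraries. The part of cell composition in the members' changes was not tested.

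Ranked per kilobase of exon, the leading members were nearly the same before and at day 5, while the cationic and leucine-type carriers changed place. In pMXs libraries the order of mean levels began with Slc6a6 (85.0 CPM per kilobase), Slc38a2 (81.8), Slc3a2 (70.0), Slc7a5 (57.0) and Slc38a4 (47.1). In Untreated libraries it began with Slc38a2 (127), Slc7a5 (70.6), Slc3a2 (64.2), Slc6a6 (60.4) and Slc38a4 (57.2). The same 5 genes thus led in both groups. Slc7a3 was at rank 8 in pMXs libraries (34.4 CPM per kilobase) and at rank 19 in Untreated libraries (5.85). Slc43a2 was at rank 15 in pMXs libraries (7.75 CPM per kilobase) and at rank 26 in Untreated libraries (1.45). Slc6a6, Slc38a2, Slc38a1 and Slc3a2, the 4 members with the highest CPM in pMXs, together held 48.4 to 49.8% of all transporter counts in Tet2-WT, 47.1 to 49.0% in Tet2-E, 45.1 to 46.8% in pMXs and 41.4 to 44.3% in Untreated libraries. In Untreated libraries the 4 highest were Slc38a2 (593 CPM), Slc6a6 (373), Slc38a10 (298) and Slc7a5 (248), so the choice by pMXs level favours a higher share at day 5.

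**Figure D3:**
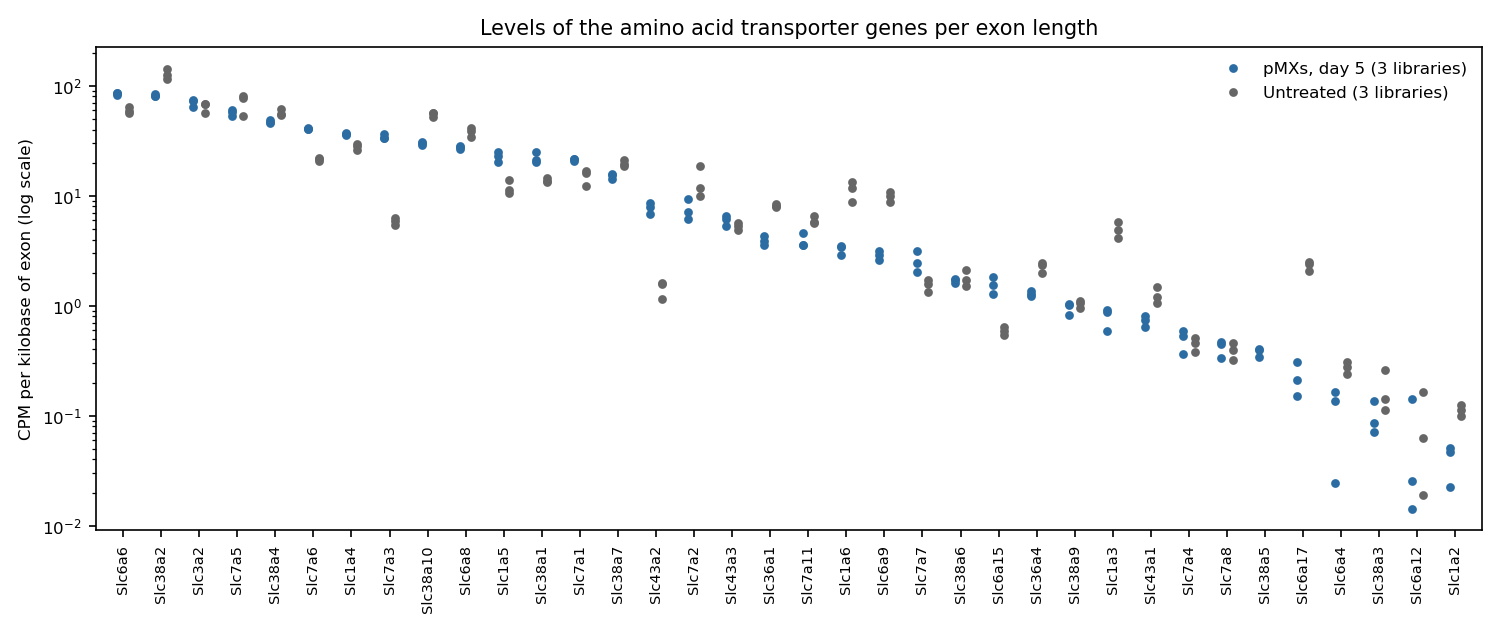
Level per kilobase of exon, on a log axis, of the 36 tested members in pMXs and Untreated libraries. Points are libraries, members are ordered by their mean in pMXs, and no means are drawn. By group mean, Slc6a6 (85.0 CPM per kilobase) leads in pMXs libraries and Slc38a2 (127) in Untreated libraries. Slc38a5, at 0 in every Untreated library, is not drawn there.

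The 25 members below the filter were 12 Slc6 genes, 6 Slc7 genes, 2 each of Slc1, Slc36 and Slc38, and Slc3a1. None exceeded 0.438 CPM in any library, and the highest total over all 13 libraries was 60 counts, for the neuronal glutamate carrier Slc1a1. They included the dopamine and noradrenaline carriers of neurons (Slc6a3 and Slc6a2) and the kidney and gut carriers Slc3a1, Slc7a9, Slc6a18 and Slc6a19.

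The second question was what wild-type Tet2 changed at day 5. Tet2-WT cells had more Slc7a3 and less Slc1a6, Slc43a3, Slc38a4 and Slc6a9 than cells with empty vector. These 5 calls held whichever of the 13 libraries was left out. Whether they also hold within the sets of replicate numbers used below cannot be judged, because a group is then left with a single library. Only the size of each change is given there. In all, 5 members rose and 5 fell with Tet2-WT against pMXs, 27.8% of 36, where 12.5% of all genes were called (6.01% higher and 6.52% lower). The libraries did not overlap in 8 members higher and 7 lower with Tet2-WT, against 17.7% and 16.9% of all genes (34.6% together). At 2-fold or more the test passed for 3 members, Slc6a12, Slc1a2 and Slc1a6, and for 3.62% of all genes. The median log2 fold change was 0.03 for the members and -0.00367 for all genes.

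Slc7a3 was at 148, 156 and 119 CPM in Tet2-WT libraries (replicates 1, 2 and 250), against 106, 97.1 and 97.1 CPM in pMXs libraries (replicates 2, 100 and 250). Every Tet2-WT library lay above every pMXs one, and the rise was 0.50 ± 0.09 (adjusted p = 0.00244). By sets of replicate numbers it was 0.52 within replicates 1 and 2, where pMXs replicate 2 stood alone. Within replicates 100 and 250, where Tet2-WT replicate 250 stood alone, it was 0.29. Slc7a3 came on top of its rise at day 5, so that Tet2-WT cells had 2.09 to 2.50 times as much of it as of Slc7a1 per kilobase, against 1.54 to 1.68 times in pMXs cells. Slc7a1 itself was at 151 ± 10.2 CPM in Tet2-WT and 153 ± 4.54 CPM in pMXs (-0.02 ± 0.10, adjusted p = 0.95).

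Slc1a6 was at 2.49, 2.76 and 2.44 CPM in Tet2-WT libraries, against 6.97, 5.82 and 7.05 CPM in pMXs libraries. It fell by 1.35 on the log2 scale (SE 0.17, adjusted p = 0.000108), further below the level of Untreated MEFs. Within replicates 1 and 2 the change was -1.40, with pMXs replicate 2 alone. Within replicates 100 and 250 it was -1.38, with Tet2-WT replicate 250 alone. Slc43a3 was at 9.71, 10.2 and 9.60 CPM in Tet2-WT libraries, against 16.9, 13.6 and 15.8 CPM in pMXs libraries (-0.64 ± 0.10, adjusted p = 0.000589). Its groups were also apart, and on the same libraries the change was -0.76 within replicates 1 and 2 and -0.60 within 100 and 250.

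Slc38a4 was at 130, 142 and 159 CPM in Tet2-WT libraries, against 193, 188 and 202 CPM in pMXs libraries (-0.44 ± 0.08, adjusted p = 0.00206). Within replicates 1 and 2 the change was -0.51, and within 100 and 250 it was -0.29, again with pMXs replicate 2 or Tet2-WT replicate 250 alone. Slc6a9 was at 6.66, 6.97 and 5.78 CPM in Tet2-WT libraries, against 9.57, 11.5 and 10.6 CPM in pMXs libraries (-0.71 ± 0.15, adjusted p = 0.00579). Like Slc1a6, it was highest in Untreated and lowest in Tet2-WT libraries. The within-set changes of Slc6a9 were -0.49 (replicates 1 and 2) and -0.94 (replicates 100 and 250).

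The other 5 calls were less secure. Slc6a6 was at 633, 641 and 613 CPM in Tet2-WT libraries, against 536, 529 and 512 CPM in pMXs libraries (0.26 ± 0.07, adjusted p = 0.0291). Slc38a6 was at 15.3, 15.1 and 14.8 CPM in Tet2-WT libraries, against 11.9, 10.8 and 11.7 CPM in pMXs libraries (0.40 ± 0.12, adjusted p = 0.0378). Slc38a10 was at 145, 138 and 141 CPM in Tet2-WT libraries, against 157, 163 and 168 CPM in pMXs libraries (-0.21 ± 0.06, adjusted p = 0.0437). In each of these 3 genes the groups did not overlap, but the differences were small. Slc1a2 had 71 counts over the Tet2-WT libraries and 29 over the pMXs libraries, at 1.17, 0.78 and 1.19 CPM in Tet2-WT, against 0.57, 0.61 and 0.27 CPM in pMXs (1.03 ± 0.31, adjusted p = 0.0384). Slc6a12, a carrier of betaine and GABA, had 60 counts over the Tet2-WT libraries and 8 over the pMXs libraries, at 1.22, 0.93 and 0.43 CPM in Tet2-WT, against 0.38, 0.038 and 0.068 CPM in pMXs (2.54 ± 0.79, adjusted p = 0.0475). Slc1a2 shares 166 bases of exon with Gm13872, and Slc38a10 367 with Gm11769, both on the opposite strand.

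Each of these 5 calls ended when single libraries were left out. For Slc6a6 these were Tet2-WT replicates 1 and 2 and pMXs replicates 2, 100 and 250, with adjusted p of 0.056 to 0.117. For Slc38a6 they were all 6 libraries compared and Untreated replicate 2 (0.0513 to 0.147). For Slc38a10 they were all 6 libraries compared, Tet2-E replicates 1 and 100 and Untreated replicate 2 (0.0545 to 0.161). For Slc1a2 they were Tet2-WT replicates 1 and 250, pMXs replicates 2, 100 and 250 and Untreated replicate 2 (0.0519 to 0.15). For Slc6a12 they were Tet2-WT replicates 1 and 2, pMXs replicates 100 and 250, Tet2-E replicates 1 and 250 and Untreated replicate 1 (0.0515 to 0.226). With the replicate block Slc6a6 (adjusted p = 0.0509), Slc1a2 (0.0744) and Slc6a12 (0.113) were lost. The 5 are not judged within sets of replicate numbers, where pMXs replicate 2 or Tet2-WT replicate 250 stood alone. In the other direction Slc38a1 was called without Tet2-WT replicate 250 (0.0433, against 0.189 with all libraries). Slc43a1, at 1.6 ± 0.4 CPM in Tet2-WT and 2.63 ± 0.32 CPM in pMXs, had an adjusted p of 0.0504 and was called without Tet2-WT replicate 2 (0.0262) or Untreated replicate 1 (0.0437) or 100 (0.0415). Slc7a8, at 2.79 ± 0.66 CPM in Tet2-WT and 1.7 ± 0.29 CPM in pMXs, had an adjusted p of 0.0555 and was called without Tet2-WT replicate 250 (0.0361) or Untreated replicate 100 (0.0453).

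**Figure D4:**
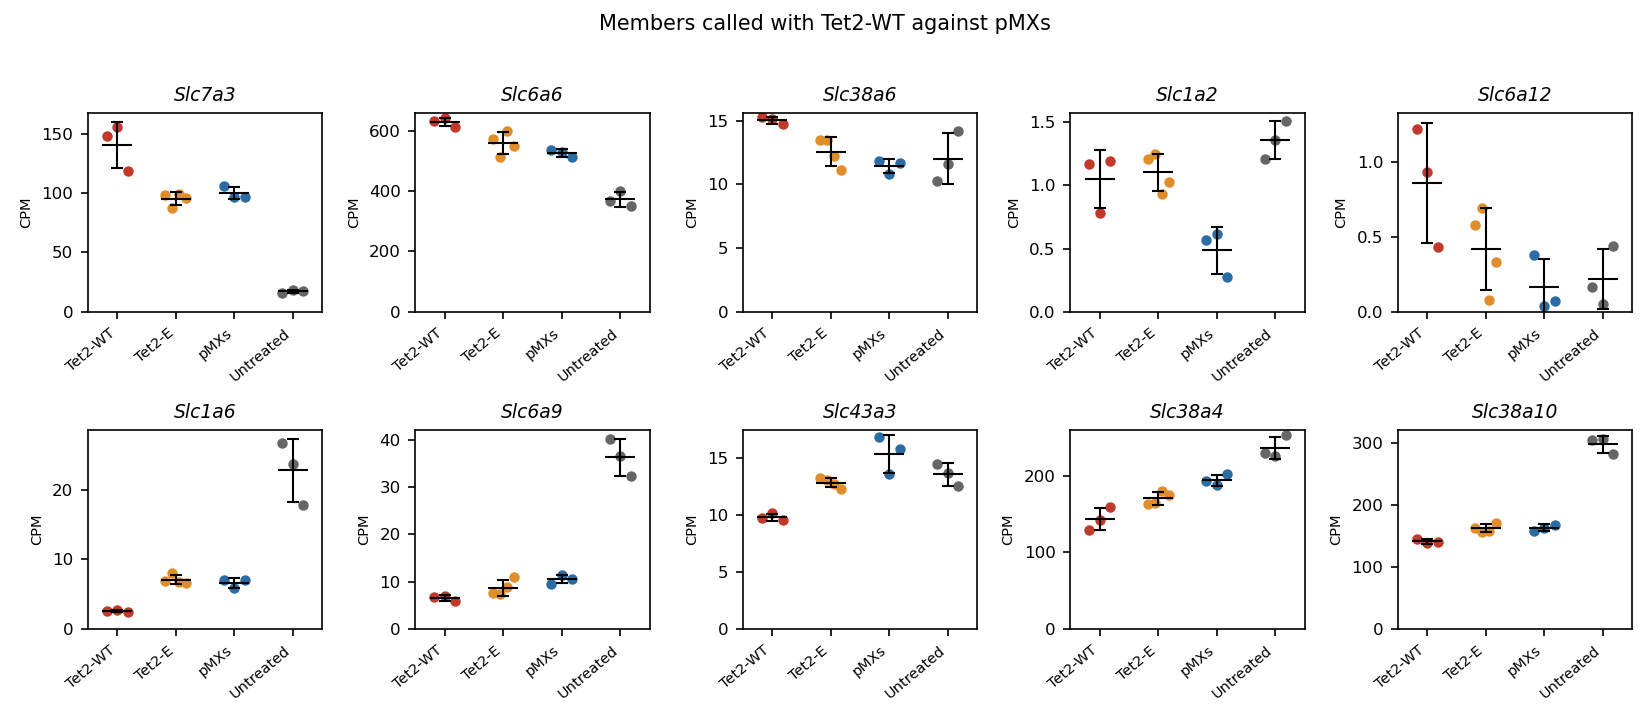
Level in CPM by library of the 10 members called between Tet2-WT and pMXs; points are libraries, horizontal lines group means and bars 1 SD. The Tet2-WT points of Slc1a6 (2.44 to 2.76 CPM) lie below all other groups, those of Slc7a3 (119 to 156 CPM) above all other groups, and the Tet2-E points of both lie near pMXs.

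Of the 8 members above 5 CPM that changed at least 2-fold between pMXs and Untreated, 3 were called with Tet2-WT (Slc7a3, Slc1a6 and Slc6a9) and 5 were not. Over all genes tested the share called was 12.5%. Both comparisons use the same pMXs libraries, and the share among all genes chosen in this way was not counted. Slc43a2 was at 52.6 ± 6.99 CPM in Tet2-WT and 55.8 ± 6.45 CPM in pMXs (-0.09 ± 0.13, adjusted p = 0.754), and Slc6a15 at 5.88 ± 1.76 CPM in Tet2-WT and 5.61 ± 0.97 CPM in pMXs (0.07 ± 0.21, adjusted p = 0.874). The light and heavy chains Slc7a5, Slc7a6, Slc7a7, Slc7a11 and Slc3a2 had adjusted p-values of 0.472, 0.897, 0.497, 0.976 and 0.638. Their changes had SEs of at most 0.19, which leaves room for moderate differences.

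With Tet2-WT against pMXs, where 12.5% of all genes were called, fibroblast markers were lower in 7 and higher in 2 of 14. Macrophage markers were higher in 4 of 7, with summed levels of 214 to 311 CPM in Tet2-WT and 82.4 to 96.4 CPM in pMXs. Adgre1 was at 0 in both groups. Pluripotency markers were lower in 2 of 10, endothelial lower in 2 of 6, neural higher in 1 and lower in 3 of 10, keratinocyte higher in 3 of 10 and skeletal muscle higher in 1 of 5. The part of cell composition in the members' changes with Tet2-WT was not tested.

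The third question was whether the stalling mutant did the same. With Tet2-E against pMXs 0 of 36 members were called by edgeR and 0 by DESeq2, where edgeR called 0.0479% of all genes (7 genes), 0.0205% higher and 0.0274% lower, and 0.00685% at 2-fold or more. The libraries did not overlap in 5 members higher and 2 lower, against 5.65% and 4.5% of all genes (10.2% together). At an unadjusted p under 0.05 edgeR gave 5 of 36 members, beside 1363 of all 14607 genes tested. The 5 were Slc1a2, Slc7a8, Slc43a3, Slc43a2 and Slc38a4. Slc1a2 was at 1.21, 1.25, 0.93 and 1.03 CPM in Tet2-E libraries, against 0.57, 0.61 and 0.27 CPM in pMXs libraries, with no overlap (1.09 ± 0.29, adjusted p = 0.186). Slc43a3 was at 13.3, 13.1, 12.7 and 12.3 CPM in Tet2-E libraries, against 16.9, 13.6 and 15.8 CPM in pMXs libraries (-0.26 ± 0.09, adjusted p = 0.37). The Tet2-E values of Slc43a3 fell between those of the other day 5 groups without passing the test. Slc7a8 changed by 0.64 ± 0.22 (adjusted p = 0.346), Slc43a2 by -0.31 ± 0.12 and Slc38a4 by -0.19 ± 0.07 (adjusted p = 0.448 for each).

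Slc7a3 and Slc1a6 were near their empty-vector levels with Tet2-E. Slc7a3 was at 98.4, 87.5, 99.3 and 96.3 CPM in Tet2-E libraries, against 106, 97.1 and 97.1 CPM in pMXs libraries (-0.07 ± 0.09, adjusted p = 0.862). Slc1a6 was at 6.92, 8.10, 6.76 and 6.59 CPM in Tet2-E libraries, against 6.97, 5.82 and 7.05 CPM in pMXs libraries (0.10 ± 0.14, adjusted p = 0.877). In both genes the groups overlapped. Slc6a9 was at 7.55, 7.27, 8.88 and 10.9 CPM in Tet2-E libraries, and its change was -0.27 ± 0.14 (adjusted p = 0.57). Markers of fibroblasts, macrophages and the other listed cell types included no called gene in this comparison.

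Setting the Tet2 forms against each other tests the difference itself. Slc7a3 was higher and Slc1a6 and Slc43a3 lower with Tet2-WT than with Tet2-E, 3 of 36 members (8.33%) where 4.62% of all genes were called (2.43% higher and 2.19% lower). Of these, Slc1a6 passed at 2-fold or more, as did 1.27% of all genes, and the libraries did not overlap in 5 members higher and 7 lower, against 7.48% and 7.54% of all genes (15% together). Slc7a3 averaged 141 ± 19.5 CPM in Tet2-WT and 95.4 ± 5.42 CPM in Tet2-E (0.56 ± 0.09, adjusted p = 0.00152). Slc1a6 averaged 2.56 ± 0.17 CPM in Tet2-WT and 7.09 ± 0.68 CPM in Tet2-E (-1.45 ± 0.16, adjusted p = 8.4e-05). All Tet2-WT libraries lay outside the Tet2-E range in both. Within replicates 1 and 2 the difference was 0.71 ± 0.08 for Slc7a3 and -1.5 ± 0.17 for Slc1a6. Within 100 and 250, where Tet2-WT replicate 250 stood alone, it was 0.28 and -1.45 in the same order. The Slc7a3 difference was thus the larger within replicates 1 and 2, and whether the sets differed was not tested.

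Slc43a3 averaged 9.83 ± 0.31 CPM in Tet2-WT and 12.9 ± 0.41 CPM in Tet2-E (-0.38 ± 0.09, adjusted p = 0.027), and the call ended without Tet2-WT replicates 1 (0.12), 2 (0.0827) or 250 (0.0791) or Tet2-E replicates 1 (0.0678), 2 (0.0532) or 100 (0.065). Within replicates 1 and 2 it was -0.40 ± 0.12 (adjusted p = 0.0523), and within 100 and 250, with Tet2-WT replicate 250 alone, it was -0.38. Slc1a3 missed the threshold, at 2.72, 2.54 and 1.82 CPM in Tet2-WT libraries, against 3.67, 4.64, 3.14 and 6.48 CPM in Tet2-E libraries (-0.93 ± 0.25, adjusted p = 0.0514). Its groups did not overlap, and it was called without Tet2-E replicate 1 (0.0456) or 100 (0.0233), pMXs replicate 2 (0.0446), or Untreated replicate 1 (0.0486) or 100 (0.0423). It was also called with RLE scaling (0.0481), with DESeq2 (0.00658) and with a term for the set of replicate numbers (0.0477). Slc38a4 had an adjusted p of 0.0788, which became 0.0256 without Tet2-WT replicate 250 and 0.047 without Untreated replicate 100; DESeq2 (0.0249) and the set term (0.0326) called it too. Slc1a5 was called without Tet2-E replicate 250 (0.0467, against 0.122 with all libraries) and with the set term (0.0447), and Slc38a10 without Untreated replicate 100 (0.0403, against 0.0715) and with DESeq2 (0.00502). Slc43a2 was called higher with the set term alone (0.0492).

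Slc7a2 became a call once the replicate number entered the fit. It was at 52.8, 53.3 and 88.8 CPM in Tet2-WT replicates 1, 2 and 250, against 34.0, 40.0, 56.6 and 58.6 CPM in Tet2-E replicates 1, 2, 100 and 250. Replicates 100 and 250 were the higher ones in both groups. The difference was 0.45 ± 0.28 (adjusted p = 0.526), and with the replicate block it was 0.54 ± 0.09 (adjusted p = 0.00232). Within replicates 1 and 2 it was 0.52 ± 0.12 (adjusted p = 0.0144), and within 100 and 250, with Tet2-WT replicate 250 alone, it was 0.62. The block also called Slc38a4 lower (adjusted p = 0.0434). In this comparison, where 4.62% of all genes were called, fibroblast markers were lower in 5 of 14 and macrophage markers higher in 4 of 7. Keratinocyte markers were higher in 2 of 10, and neural markers higher in 1 and lower in 1 of 10. Pluripotency markers were lower in 1 of 10 and muscle markers higher in 1 of 5. Macrophage markers summed to 214 to 311 CPM in Tet2-WT and 94.8 to 129 CPM in Tet2-E. Their part in the members' differences was not tested.

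Genes that use, sense or charge the carried amino acids were described from 8 lists. Between pMXs and Untreated the genes of serine, glycine and threonine use rose in 11 and fell in 6 of 20 tested. Tdh, the threonine dehydrogenase of mouse pluripotent cells, was at 39.7 CPM in pMXs and 0.03 CPM in Untreated libraries, and Gldc, of the glycine cleavage system, rose by 3.39 on the log2 scale. The mitochondrial folate enzyme Aldh1l2 (-1.42) and the serine racemase Srr (-1.05) fell. The list for cystine and glutathione rose in 8 and fell in 6 of 17. Cth, which makes cysteine from cystathionine, was at 46.1 CPM in pMXs and 3.69 CPM in Untreated libraries (3.65), and Ggct rose by 1.84, while the gamma-glutamyl transferase genes Ggt5 (-3.52) and Ggt7 (-2.33) fell. Cytosolic tRNA synthetases rose in 14 and fell in 4 of 22, with Vars (0.85) and Kars (0.81) highest and Aars (-0.97) and Cars (-0.58) lowest.

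The genes that answer to Atf4 held no single direction between pMXs and Untreated, with 7 of 17 tested higher and 9 lower. Ddit4 and Atf3 rose by 1.57 and 1.36 on the log2 scale, and Ddit3 (-1.65) and Atf5 (-1.41) fell. Genes of glutamine, glutamate, aspartate and proline use rose in 9 and fell in 6 of 19, among them Prodh (2.86) and Gls2 (2.58), Pycr1 (-1.32) and Oat (-1.19). Genes of branched-chain amino acid and arginine use rose in 8 and fell in 1 of 18, among them Gatm (2.54) and Nos2, which was at 1.03 CPM in pMXs and 0.016 CPM in Untreated libraries, with Bckdha at -0.90. Those that sense amino acids for mTORC1 rose in 8 and fell in 10 of 33, among them Rragd (1.86) and Rragb (1.66), and those named Gatsl2 (-1.16) and Gatsl3 (-0.74). Carriers of other families rose in 5 and fell in 7 of 16, among them the mitochondrial carriers Slc25a13 (1.62) and Slc25a15 (0.82), and the vesicular glutamate carriers Slc17a6 (-6.15) and Slc17a7 (-1.78). Against the 70.1% of all genes called, the share called in these lists ranged from 50% to 94.1%.

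With Tet2-WT against pMXs the list for cystine and glutathione had the most calls, 7 higher and 1 lower of 17, beside 12.5% of all genes. Nfe2l2, the regulator of oxidative defence, was at 238 CPM in Tet2-WT and 154 CPM in pMXs (0.63, adjusted p = 5.63e-05), Gss rose by 0.56, and the glutathione-degrading enzyme Chac1 fell by 0.92. Slc7a11, the cystine carrier, was not called (38.1 ± 4.33 CPM in Tet2-WT and 38.4 ± 5.80 CPM in pMXs). Atf4 response genes were higher in 2 (Gdf15, 1.20; Nupr1, 0.85) and lower in 3 of 17, of which Trib3 (-1.13) and Chac1, which both lists hold, fell most. Genes of glutamine and proline use were higher in 2 (Got1, 0.43; Glud1, 0.30) and lower in 1 of 19 (Pycr1, -0.90), and those of branched-chain and arginine use higher in 2 of 18 (Gatm, 1.10; Sat1, 0.85). The other lists had 1 or 2 calls each: Aldh1l2 (-0.75) for serine, Lamtor2 (0.25) and Sesn1 (-0.51) for mTORC1, Aars (-0.24) for the synthetases, and Slc25a13 (0.36) and Slc16a10 (-0.87) for other carriers. With Tet2-E against pMXs no listed gene was called. Between Tet2-WT and Tet2-E the calls were Gdf15 (0.65), Gatm (0.63), Gsr (0.36) and Nfe2l2 (0.35) higher and Trib3 (-0.56) and Vldlr (-0.46) lower.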

How the data were processed

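RNA was sequenced as paired-end libraries made with a stranded mRNA kit, in 2 preparation sets whose members the labels do not name. The values are counts of reads per gene, deposited by the authors as one table; per the submitters' processing notes the tools included DESeq2 1.26.0, featureCounts 1.6.2 and STAR 2.6.1a, beside bedtools 2.27.1, R 3.6.2 and SAMtools 1.7, with the build mm9. The strand setting is not given in the sources used here. The gene column is headed refGene, per the file headers.

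From these counts, genes with low counts were left out with edgeR's filterByExpr by group (count minimum 10, total minimum 15), which kept 14607 of 24495 genes. Libraries were scaled by TMM. One quasi-likelihood model with a mean per group was fitted over all 4 groups in edgeR 4.0.16 (R 4.3.3, limma 3.58.1), with robust dispersion estimates, and p-values were adjusted by Benjamini-Hochberg over all genes tested. SEs were derived from the F statistic and the log2 fold change. The script was tested on simulated data. DESeq2 1.42.0, RLE scaling, other filters, a fit of the compared groups alone, each library left out, the replicate number as a block (replicate block), a term for its set, and contrasts within sets were the alternatives. Replicate numbers 1, 2, 100 and 250 recur across groups. The model reported does not pair libraries, and the replicate block was run only as an alternative. Deviations from group means correlated at 0.121 to 0.339 over the 8 same-numbered pairs of day 5 libraries. Pairs of different numbers within a set (1 with 2, 100 with 250) correlated about as much, at 0.0784 to 0.363, and pairs across sets at -0.42 to -0.0497, so the number cannot be told from the set. For the 7 same-numbered pairs with an Untreated library the correlation was -0.0425 to 0.171. Replicates differed by more than counting error (chi-square per degree of freedom 6.3 to 40.9), so none was merged.

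Exon lengths are merged exons of the GENCODE M21 basic annotation on GRCm38, matched by symbol, as are the exon overlaps. Values per library are given for members called in a comparison with Tet2-WT or Tet2-E, and for members called between pMXs and Untreated with a log2 change of at least 1 and 5 CPM in a group. From each list the text names at most 2 genes called higher and 2 called lower, those that changed most at 1 CPM or more. Members, lists and tests were chosen with earlier results of these data known.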

Additional observations from a re-analysis of the deposited data

Results flagged for a closer look

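Dixon's test at the 95% level was run on the 4 Tet2-E libraries for each of the 36 tested members, and 1 member had a library that stood apart. Slc6a17 was at 2.01 CPM in Tet2-E replicate 2, against 1.68 CPM in replicate 1, 1.72 CPM in replicate 100 and 1.69 CPM in replicate 250. Chance gives such a value in about 5% of groups. Groups of 3 libraries were not tested in this way.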

How the results depend on the processing

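The counts of members called between pMXs and Untreated stayed within 1.5 times under every alternative run, with 11 or 12 higher and 14 to 17 lower. With Tet2-E against pMXs the count was 0 under all of them, although the count over all genes moved from 7 to 141 with DESeq2, 93 with the replicate block, 152 with a term for the set of replicate numbers, 17 without a filter, and 1 with only the compared groups. Leaving out single libraries gave 1 to 50 genes, 50 without Tet2-E replicate 100 and 31 without Untreated replicate 100. With Tet2-WT against pMXs the members called higher, 5 in the model reported, were 3 without a filter on low counts and 2 with the replicate block. Those called lower were also 5 in the model reported. Counts within sets of replicate numbers are left out for this comparison, since pMXs replicate 2 or Tet2-WT replicate 250 stood alone. Leaving out 1 library gave 1 to 6 higher and 4 to 6 lower. Between Tet2-WT and Tet2-E the 1 member called higher became 2 with the replicate block, 4 with the set term and 3 within replicates 1 and 2, and the 2 called lower became 5 with DESeq2 and 4 with the set term. Leaving out 1 library gave 1 to 2 higher and 1 to 5 lower. Between pMXs and Untreated the block ended the call of Slc6a4 (adjusted p = 0.0858) and made one of Slc7a5 (0.0436). Apart from these and the members named with it above (Slc6a6, Slc1a2, Slc6a12, Slc38a4 and Slc7a2), it changed no member's call. The cause of these moves was not tested; contrasts within sets rest on fewer libraries. No called member changed direction under any alternative. Slc6a12 and Slc6a4 dropped out where at least 1 CPM in 3 libraries was asked. Depth limits most the members with few counts, such as Slc6a12 (8 over the pMXs libraries) and Slc1a2 (29).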
